A study of Rattus norvegicus and Bos taurus with 6 samples.

Results

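The nuclei described here are the adipocyte nuclei of thoracic aortic perivascular adipose tissue (taPVAT) of the Dahl SS rat, in a single-nucleus RNA sequencing (snRNAseq) library made with the Parse Evercode WT v3 kit. A nucleus was taken as an adipocyte nucleus when A, its transcripts (unique molecular identifiers, UMIs) summed over 9 adipocyte genes, was at least 5 and more than 2 times B, its UMIs summed over 12 genes of other cells. A covers Plin1, Adipoq, Cidec, Lipe, Acsl1, Pparg, Plin4, Pnpla2 and Dgat2. B covers the endothelial genes Ptprb, Pecam1, Flt1 and Mecom, the stromal genes Pdgfra, Dcn and Fbn1, the immune genes Ptprc, Mrc1 and Dock2, and the mural genes Notch3 and Myh11. By this rule 1309 of the 2708 nuclei of the library were adipocyte nuclei, or 48.3% (exact binomial 95% interval, 46.4 to 50.2), out of 11240 nuclei in the 4 rat Parse libraries of the study. They held 3530813 of the 5100216 UMIs of the taPVAT library, or 69.2%. All intervals below are at 95% and cover counting error only.

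The study optimised nuclei isolation from rat and cow fat for snRNAseq. The taPVAT came from male Dahl SS rats (strain SS/HsdMcwiCrl, a salt-sensitive strain bred as a model of hypertension) from Charles River, kept on a normal diet at 22 °C, with no treatment and with tissue that was snap frozen. Age and the number of animals behind each library are not given in the sources used here. Subscapular brown adipose tissue (BAT), the library used for comparison, and the libraries labelled mesenteric PVAT (mesPVAT) and retroperitoneal (RP) fat came from the same strain and sex and carry the same batch label. Over all nuclei the median depth was 346 transcripts and 304 genes under the mesPVAT label, and 213 transcripts and 197 genes under the RP fat label. The study orders the depth of these depots the other way round, and whether the labels of the pair are exchanged was not tested. A mesPVAT library made on the 10x Genomics platform was not used here. Each depot had 1 rat Parse library, so no difference between depots was tested, and what belongs to the depot cannot be told apart from what belongs to the animals or to the library. The study also centrifuged taPVAT homogenates at a lower speed than rat white fat. Between taPVAT and the white depots, depot and isolation therefore cannot be told apart either.

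PVAT is the fat that surrounds blood vessels. Around the thoracic aorta of rodents it resembles brown fat, whose adipocytes hold many small lipid droplets and many mitochondria, and burn fatty acids to make heat. In brown adipocytes noradrenaline acts through beta-adrenergic receptors and cyclic AMP to release fatty acids from triglyceride, and these fatty acids fuel mitochondria and open uncoupling protein 1, encoded by Ucp1, which lets protons back across the inner membrane without making ATP. The same adipocytes refill their droplets by taking up lipid and glucose, by making new fatty acids and by joining these to glycerol, and they release factors that act on the vessel wall and on nerves.

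The upstream sequences of 3 genes are shown because Ucp1 is the defining gene of brown adipocytes, and because Stard5 and Aldh1l1 were among the 3 named genes with the largest ratio between adipocyte and other nuclei. P2rx5 was the other. The sequences are from RefSeq on the build GRCr8, read 5′ to 3′ on the strand of the gene, and end before the first transcribed base. Capitals mark letters of promoter elements found on either strand: TATAAA is the sequence of the TATA box. GGGCGG is that of the GC box. The letters CCAAT give a box its own name. AGGTCA, the core letters that nuclear receptors such as PPAR-gamma bind, was also searched on both strands.
Ucp1, chr19:41721422-41721671, minus strand: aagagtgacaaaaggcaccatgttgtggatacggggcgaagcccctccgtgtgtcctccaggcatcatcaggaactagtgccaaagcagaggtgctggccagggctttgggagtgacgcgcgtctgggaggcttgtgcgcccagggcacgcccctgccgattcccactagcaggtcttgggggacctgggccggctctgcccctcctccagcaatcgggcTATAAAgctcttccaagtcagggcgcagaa
Stard5, chr1:147015054-147015303, plus strand: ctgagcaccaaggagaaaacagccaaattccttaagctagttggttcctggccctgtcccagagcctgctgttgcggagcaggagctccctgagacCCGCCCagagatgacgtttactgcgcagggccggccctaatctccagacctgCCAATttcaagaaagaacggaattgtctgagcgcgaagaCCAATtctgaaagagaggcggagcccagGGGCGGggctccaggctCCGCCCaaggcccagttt
Aldh1l1, chr4:124616970-124617181, plus strand: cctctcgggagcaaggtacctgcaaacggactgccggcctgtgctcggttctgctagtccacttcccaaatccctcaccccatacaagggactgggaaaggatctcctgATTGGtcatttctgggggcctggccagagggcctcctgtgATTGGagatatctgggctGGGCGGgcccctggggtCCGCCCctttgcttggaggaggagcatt
The Ucp1 sequence held TATAAA starting 30 bases before the start of the transcript and none of the other letters. Stard5 held CCAAT 102 and 63 bases before its start and GGGCGG or its reverse complement 154, 35 and 18 bases before it. In Aldh1l1 the reverse complement of CCAAT lay 141 and 101 bases before the start of the transcript that the table uses, and GGGCGG or its reverse complement 83 and 66 bases before it. For Aldh1l1 the last 38 of 250 bases were left out, since the annotated gene begins there. AGGTCA was in none of the 3 windows. Among 33469 rat promoter windows of 250 bases, 14.1% held AGGTCA, 12.9% TATAAA, 34.0% CCAAT and 30.5% GGGCGG, so the last 2 are common letters.

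The adipocyte nuclei were deeper than the rest of the library. Their median was 2091 transcripts per nucleus (order-statistic interval, 2008 to 2179), with quartiles of 1290 and 3367 and a range of 336 to 21863, and 1211 genes per nucleus (1171 to 1261). The other 1399 nuclei had a median of 752 transcripts (721 to 790) and 580 genes. Among these, 599 were led by B genes, with B at least 3 and more than 2 times A, and had a median of 959 transcripts. They split into 246 nuclei with mostly endothelial markers, 112 immune, 87 stromal, 56 mural and 69 with no single lineage ahead, while the remainder had A at least 5. A further 495 nuclei had few markers of either kind, and 169 had A of 1 to 4 and more than 2 times B, with a median of 484 transcripts. Since the rule asks for A of at least 5, shallow nuclei pass it less easily, and the gap in depth is not independent of the rule.

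Because the rule is a threshold, its edge was described. Only 31 adipocyte nuclei had A of exactly 5, with a median of 639 transcripts, and 37 nuclei just outside had A of 4 with A more than 2 times B and a median of 490 transcripts. On the other edge, 63 members had A of 2 to 3 times B, and 88 nuclei outside had A of 1 to 2 times B. In all, 165 nuclei with A of at least 5 stayed outside because B was too high, and their median of 2118 transcripts was close to that of the members. A ran from 5 to 305 in the members with a median of 24, and B had a median of 1 and was 0 in 475 members (36.3%). No doublet caller was used, and these 165 nuclei, which hold markers of both kinds, were left among the other nuclei. No barcode was shared between libraries, and 101 barcode combinations occurred in both sublibraries of taPVAT, where the sublibrary index tells them apart.

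**Figure D1:**
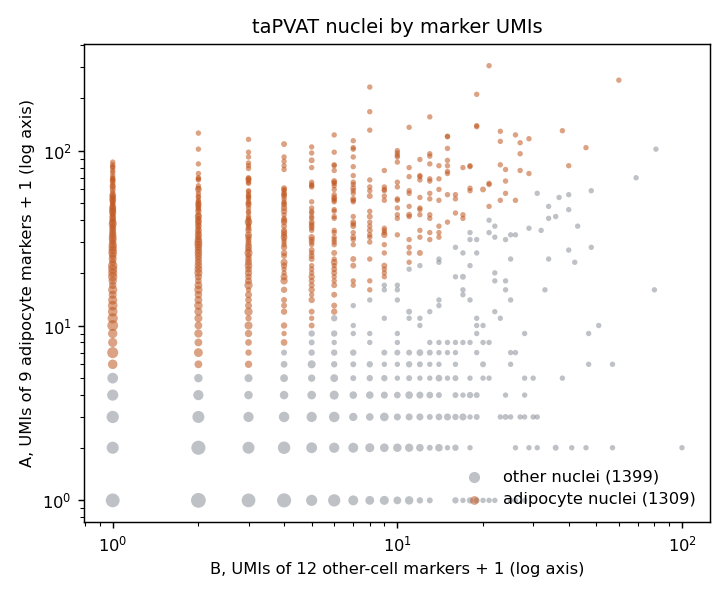
UMIs of the 12 genes of other cells (B plus 1, horizontal, log axis) against UMIs of the 9 adipocyte genes (A plus 1, vertical, log axis) for the 2708 taPVAT nuclei, with point size growing with the number of nuclei at that pair of values. The 1309 adipocyte nuclei lie above the edge set by A of at least 5 and A more than 2 times B, and 31 of them have A of exactly 5.

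The library offers a technical repeat, since nuclei were split over 3 wells in the first round of barcoding and over 2 sublibraries at the end. Adipocyte nuclei were 433 of 804 nuclei (53.9%), 441 of 1011 (43.6%) and 435 of 893 (48.7%) in the 3 wells, and 46.7% and 50.3% of the sublibraries. Wells and sublibraries share the tissue and the animals and are not biological replicates. Where 3 values are given below for a gene, they are its counts per 1000000 UMIs (CPM) summed over the adipocyte nuclei of the 3 wells, in the same order.

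The nuclei were chosen by their UMIs of the 9 genes of A and the 12 genes of B, so the values of these genes are a description. Plin1, the perilipin that coats the droplet and guards it from lipolysis, was 2678, 3111 and 3913 CPM in the wells and 531 CPM in the other nuclei. Adipoq, which encodes adiponectin, was 170.2, 187 and 161 CPM, Cidec 238, 241 and 335 CPM, Lipe (hormone-sensitive lipase) 1086, 1046 and 1590.2 CPM and Acsl1 2986, 3303 and 3134 CPM. Plin1, Cidec and Lipe were highest in the third well, while Acsl1 and Adipoq were highest in the second. The log2 ratios of CPM between adipocyte and other nuclei were 1.87 for Pparg, the nuclear receptor that makes a cell an adipocyte, and 1.67, 2.13 and 2.05 for Plin4, Pnpla2 and Dgat2. From here to the comparison with BAT, a log2 value in parentheses after a gene is this log2 ratio of adipocyte to other nuclei.

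Ucp1 (chr19:41713350-41721421 on GRCr8) was not used by the rule and can check the label. It was 2288, 2272 and 2491 CPM in the adipocyte nuclei of the 3 wells, against 532, 499 and 450.1 CPM in the other nuclei of the same wells, and no well overlapped. Over the library it was 2356 CPM (exact Poisson interval, 2305 to 2407, 8318 UMIs) in the adipocyte nuclei and 490.0 CPM (769 UMIs) in the other nuclei, a log2 ratio of 2.27 (2.16 to 2.37). In nuclei led by B genes it was 174 CPM (145 to 207). With every nucleus thinned to 500 UMIs, 759 of 1276 adipocyte nuclei had a Ucp1 UMI (59.5%, exact binomial interval 56.7 to 62.2, 33 shallower nuclei left out), against 48 of 536 nuclei led by B genes (8.96%, 6.68 to 11.7, 63 left out). Without thinning the shares were 83.3% and 17.7%, at median depths of 2091 and 959 UMIs. The share in nuclei led by B genes is taken as the background, since most of these should lack the gene. Just outside the rule, the 169 nuclei with A of 1 to 4 and A more than 2 times B had 1069 CPM of Ucp1, and the 165 with A of at least 5 and too high a B had 898 CPM, both between the adipocyte nuclei and the rest. Nothing in these values goes against the label of adipocyte nuclei.

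The thermogenic list held 23 genes, of which 20 passed the minimum of 50 UMIs over the library, and 17 of these were at least 2-fold higher in adipocyte than in other nuclei and 2 at least 2-fold lower. Over all 10231 genes tested, 9.87% were at least 2-fold higher and 26.3% at least 2-fold lower, and the median log2 ratio was -0.27, against 2.18 for the list. The rule chose the nuclei by adipocyte genes from the same contrast, so these counts describe the nuclei and support nothing further. Summed, the list was 15151 CPM in adipocyte nuclei, 3637 CPM in other nuclei and 1999 CPM in nuclei led by B genes.

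Among the regulators, Ppargc1a, which encodes the coactivator PGC-1alpha that drives mitochondrial biogenesis, was 873, 784 and 742 CPM in the wells and 164 CPM in other nuclei. Its relative Ppargc1b was 2286, 2341 and 2479 CPM against 451 CPM. Prdm16, which sustains the brown fat programme, was 848, 1014 and 1019.8 CPM (log2 ratio 1.84), and Ebf2, a transcription factor of brown precursors that stromal cells also use, differed less (1.17). Ppara and Esrrg, nuclear receptors that turn on genes of fatty acid oxidation, had log2 ratios of 2.41 and 2.31. Each of these was more than 2-fold higher in the adipocyte nuclei.

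Effectors of heat production were higher as well. Cidea, a droplet protein of brown adipocytes, was 996, 1167 and 1095 CPM (log2 ratio 2.03). Dio2, the deiodinase that makes active thyroid hormone inside the cell, was 291, 250.4 and 276 CPM (2.37), and Gk, the glycerol kinase that lets brown adipocytes reuse glycerol, was 875, 827 and 921 CPM (2.27). Kcnk3 and Otop1, a potassium channel and a proton channel, had log2 ratios of 2.11 and 2.29, Acot11, a thioesterase induced by cold, 2.44 and Ucp3 2.14. The 2 lower genes of the list were Ucp2, which macrophages express, at 20 UMIs against 50 (-2.49), and Cox8b, a cytochrome oxidase subunit, at 68 against 61 (-1.01). Zic1, Elovl3 and Cox7a1 were under the minimum. Creatine, calcium and other futile cycles showed less: of 6 genes tested Itpr1, an endoplasmic reticulum calcium channel, was higher (1.05), Ryr2 and Atp2a3 were lower, and Atp2a2, which encodes the calcium pump SERCA2, was 213 CPM against 169 CPM.

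Genes of lipid storage were mostly higher. Of the 10 genes of triglyceride synthesis tested, 8 were at least 2-fold higher and none lower, with a median log2 ratio of 2.01. Gpam, which adds the first fatty acid to glycerol phosphate, was 506, 570.0 and 593 CPM against 125 CPM in other nuclei. Agpat2, which adds the second, had a log2 ratio of 2.35, and Lpin1 and Dgat1, which act next, 2.18 and 1.91. Pck1 and Gpd1, which supply the glycerol backbone, were 2656 and 1335 CPM against 676 and 368 CPM. Agpat5 and Lpin2 were the 2 genes within 2-fold.

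Genes of fatty acid synthesis were mostly higher, and those of uptake were mixed. Of 11 genes of lipogenesis, 8 were higher and none lower (median 1.37). Acaca and Acacb, the acetyl-CoA carboxylases, had log2 ratios of 1.76 and 2.32, Acly, which makes cytosolic acetyl-CoA, 1.70 and Srebf1, the transcription factor that controls the pathway, 2.24. Fasn, the fatty acid synthase, differed less, at 814, 693 and 1059.6 CPM in the wells and 400.2 CPM in the other nuclei (1.10). Of 10 uptake genes 5 were higher, 1 was lower and 4 were within 2-fold. Lpl, the lipase that frees fatty acids from plasma lipoproteins, was 2446 CPM against 666 CPM and Slc27a1, a fatty acid transporter, had a log2 ratio of 2.20. Fabp4, which endothelial cells also express, was within 2-fold at 0.27.

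On the side of release and burning, 5 of 10 lipolysis genes were higher and 1 lower. Abhd5, the activator of the lipase that Pnpla2 encodes, was 249.8, 291 and 352 CPM (2.12), and Aqp7, the channel by which glycerol leaves, 158, 165 and 191 CPM (1.81). Mgll, the monoglyceride lipase, was 784 CPM in adipocyte and 989.5 CPM in other nuclei, so its level was lower in the adipocyte nuclei though within 2-fold. Gpihbp1, which anchors lipoprotein lipase to capillary endothelium, was the lower gene (-2.58). Of 18 genes of fatty acid oxidation 11 were higher and 1 lower, median 1.37. Cpt1b, the carnitine palmitoyltransferase of muscle and brown fat, was 890.0, 1057 and 1274 CPM (2.54) and Cpt1a, the form of liver and many other cells, had 53 UMIs against 81 (-1.78). The 2 isoforms thus had opposite directions. Acadvl, Hadha and Hadhb, enzymes of the oxidation spiral, had log2 ratios of 1.82, 1.52 and 1.74. Of 6 further droplet genes 5 were higher, among them Plin5, which ties droplets to mitochondria, at 2.12.

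The electron transport chain differed by genome. Of 74 nuclear genes of oxidative phosphorylation tested, 7 were at least 2-fold higher, among them Sdhb (1.27) and Ndufb2 (1.56), and 2 were lower, with a median of 0.39. All 13 genes encoded by mitochondrial DNA were at least 2-fold lower (median -1.12). Mitochondrial transcripts were 0.265% of UMIs in adipocyte and 0.584% in other nuclei. Of 40 ribosomal protein genes none was higher and 9 were lower, median -0.71. The 7 of 74 and the 9 of 40 are no larger as shares than the 9.87% higher and 26.3% lower of all genes tested.

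Glucose use and insulin signalling were higher in most genes. For glucose use, 12 of 16 were higher and 1, Hk1, was lower. Slc2a4, the insulin-responsive transporter GLUT4, was 48.9, 63.0 and 63.3 CPM against 19.1 CPM in other nuclei, and Hk2, the hexokinase of insulin-responsive tissue, had a log2 ratio of 1.33 while Hk1 had -1.34. Pdk4, which shuts pyruvate out of oxidation when fat is burned, was 1377, 1479 and 1398 CPM (2.15). Gys2, the glycogen synthase known from liver, had 2.32 and Pygl, a glycogen phosphorylase, 1.82. For insulin signalling 9 of 17 genes were higher and 2 lower. Irs1 and Irs2, the docking proteins of the receptor, had 1.86 and 2.02, and Insr itself 1.16. Akt2, the kinase that moves GLUT4 to the membrane, was higher (1.84) whereas Akt1 was 45.9 CPM against 49.7 CPM. Grb10, an inhibitor of the receptor, and Tbc1d1 were the lower genes.

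Of 22 genes of adrenergic and cyclic AMP signalling tested, 13 were higher and 3 lower. Among receptors, Adrb3, the beta3-adrenergic receptor of rodent adipocytes, was 401, 355 and 465 CPM and 71.4 CPM in other nuclei (2.51). Adrb1 had 1.63 and Adra1a, the alpha1A receptor, was 1615, 1459.6 and 1619 CPM (2.24), while Adra1b and Adra2a were among those under the minimum. Downstream, Gnas, the stimulatory G protein, had 1.60, the cyclases Adcy5, Adcy6 and Adcy9 1.38, 1.32 and 1.18, and Prkar2b, the regulatory subunit of protein kinase A that adipocytes use, 2.25. Adcy4, a cyclase of endothelium, Pde4b, a phosphodiesterase of immune cells, and Adcy3 were lower (-2.45, -2.26 and -1.07). Both Pde3b (1.88), by which insulin lowers cyclic AMP, and Pde4d (1.18) were higher.

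Genes of secreted factors and their receptors gave 10 higher and 2 lower of 15. Nrg4, a neuregulin that brown fat releases, was 638, 605 and 624 CPM against 116, 75.7 and 71.3 CPM in the other nuclei of the wells (2.90). Its locus overlaps 3 genes, among them Fbxo22, so reads cannot be told apart there unless strand was used, which the sources used here do not state. Vegfa, the angiogenic factor, was 1525, 2129.6 and 2084 CPM (1.97). Lep, which encodes leptin, was low at 20.4, 45.7 and 46.1 CPM (1.47), and Retn (resistin) had 1.60. Cfd and Agt were within 2-fold. Metrnl was among the lower genes. In the wider list of growth factors, 4 of 22 were higher (Vegfa, Vegfb, Nrg4 and Fgf9) and 12 were lower, among them Tgfb1 (-2.52) and Bmp6 (-2.64).

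Genes of factors that act on vessels were mostly lower. Of 12 genes of nitric oxide and other vasoactive pathways tested, 2 were higher and 10 lower. Ephx2, the soluble epoxide hydrolase that degrades vasodilator fatty acid epoxides, was 219, 227 and 205 CPM against 49.7 CPM (2.12), and Cbs, which can make hydrogen sulfide, had 65 UMIs against 10 (1.53). Nos3, the endothelial nitric oxide synthase, had 83 UMIs against 276 (-2.90), and Gucy1a1, a subunit of the soluble guanylate cyclase that nitric oxide activates, had -2.39. In the renin-angiotensin list 0 of 7 genes were higher and 4 were lower. Agt, angiotensinogen, was 40.8, 31.5 and 27.3 CPM against 18.5 CPM, with a log2 ratio of 0.82, and Agtr1a, the receptor, was lower (-2.47). Of the monoamine genes 4 passed the minimum, and Slc22a3, a transporter that clears noradrenaline at low affinity, was 348, 346 and 372 CPM (2.05), while Maoa, which breaks down monoamines, was 15.9 CPM. Of 9 mechanosensitive channels none was 2-fold higher and 5 were lower. Piezo1 was 380.3, 367 and 534 CPM against 230.0 CPM (0.91), and 18.0% of adipocyte nuclei (16.0 to 20.2) had a Piezo1 UMI at 500 UMIs against 10.4% of nuclei led by B genes (7.99 to 13.4).

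Hormone receptors and the clock differed little. Of 11 steroid and thyroid genes Thrb, the beta thyroid receptor, was higher (1.68) and 2 were lower, and Nr3c1 and Nr3c2, the glucocorticoid and mineralocorticoid receptors, had 0.58 and 0.07. Among 14 clock genes 2 were higher, among them Nr1d1 (1.29), and Cry1 was lower. Of 17 adipogenic transcription factors 9 were higher and none lower: Cebpb had 1.72 and Rxrg 2.11, but Ebf1 was high in both kinds of nuclei (3298 and 2949.5 CPM). Of 21 matrix genes none was higher and 11 were lower. Lama4, the laminin chain of the adipocyte basement membrane, was 1428 CPM against 844 CPM, and Col4a1 688 CPM against 1136 CPM. Of 8 early stress genes none was higher and 3 were lower.

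**Figure D2:**
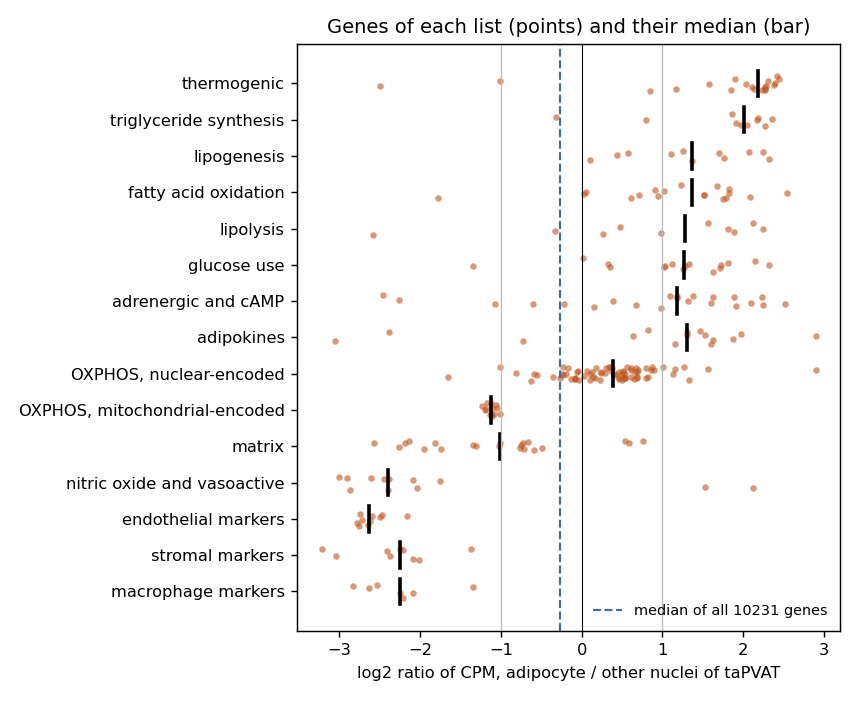
Log2 ratio of CPM between adipocyte and other taPVAT nuclei (horizontal) for each gene tested (points) of 15 lists, with the median of the list as a black bar, the 2-fold limits as grey lines and the median of all 10231 genes (-0.27) as a dashed line. The thermogenic and triglyceride lists have medians of 2.18 and 2.01, and the 3 marker lists of other cells have medians below -2.

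The named genes with the largest ratios, apart from the genes of the rule, were led by Stard5 at 25.5, 32.3 and 29.7 CPM in the wells (104 UMIs, against 4 in other nuclei, log2 ratio 3.53 with a conditional binomial interval of 2.13 to 5.43), a gene whose protein carries sterols and whose upstream sequence is printed above. P2rx5, an ATP-gated channel known as a surface marker of brown adipocytes, was 144, 135 and 139.9 CPM against 13.8, 19.3 and 9.38 CPM in the other nuclei of the wells (log2 ratio 3.25, interval 2.65 to 3.92). Aldh1l1, a folate enzyme, was 72.4, 75.6 and 96.1 CPM against 8.27, 10.4 and 13.1 CPM (log2 ratio 2.92, interval 2.22 to 3.72). Next were Nrg4, Cenph, Galk1l1, Lgals12 (a galectin of lipid droplets), Tspan17, Coro6 (335, 313 and 459 CPM) and Acvr1c, the activin receptor ALK7 of adipocytes (442, 402 and 439.9 CPM). Magel2, Vmn2r1, Glyctk, Rnf128, Trpt1, Col11a2, Ptp4a1, Cpt1b, Bche and Pfkfb1 followed, down to 2.52 for Pfkfb1, a kinase that sets the pace of glycolysis. In the 3 wells each of the 20 was higher in adipocyte nuclei. Set against nuclei led by B genes, the ratios of Coro6 and Pfkfb1 grew to 4.28 and 4.56. At 500 UMIs, 24.8% of adipocyte nuclei had a Nrg4 UMI and 1.68% of nuclei led by B genes, and for Pfkfb1 34.1% and 2.05%.

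The 10 lowest were St8sia4 (-3.40), Plscr2, Lzts1, P2ry10, Pdcd1lg2, Cd34 (-3.21), Tmc6, Nipal2, Fgr and Acvrl1, an endothelial receptor for BMP9 (-3.08).

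Markers of other cells outside the rule were low but not at 0. All 10 endothelial, 9 stromal and 7 macrophage markers tested were at least 2-fold lower, with medians of -2.64, -2.25 and -2.24, and summed to 473, 520 and 126 CPM in the adipocyte nuclei and to 2846, 2186 and 573 CPM in the other nuclei. The most abundant were Cyyr1 (282 UMIs), Col3a1 (711 UMIs) and Mertk (113 UMIs), and none of these 3 lists had a marker at 0. Of 7 mural markers 5 were lower, and Mylk was 523 CPM against 330.1 CPM. Among Schwann cell genes Mbp was higher (1.78) while Ncam1 was lower and Sox10 was under the minimum, and among genes of striated muscle Actn2 was higher (1.68) while Ttn and Myh6 were lower (-2.84 and -2.25). Lymphatic, lymphocyte and mesothelial markers were lower in all 3, 3 and 1 genes that passed the minimum. The gene ENSRNOG00000087169, which the files do not pair with a symbol, took 14.04% of the UMIs of adipocyte nuclei and 7.02% of the other nuclei, so that every CPM here shares a total that this gene shifts.

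The same rule found 1623 adipocyte nuclei in BAT, 60.1% of that library, with a median of 2245 transcripts. Of 10895 genes tested, 218 were at least 2-fold higher in taPVAT than in BAT adipocyte nuclei (2.00%) and 50 were at least 2-fold lower (0.459%), with a median log2 ratio of 0.04. These counts depended on the settings: the 218 became 104 in sublibrary 1 alone, 59 with thinned nuclei and 579 and 43 with minimums of 20 and 200 UMIs, and the 50 became 229 and 7 with the same minimums. In the thermogenic list 0 of 19 genes passed 2-fold either way. Ucp1 was 2288, 2272 and 2491 CPM in the wells of taPVAT and 2646 CPM in BAT (log2 ratio -0.17), and 59.5% against 64.5% of nuclei had a Ucp1 UMI at 500 UMIs. Cidea (-0.37), Ppargc1b (-0.31) and Esrrg (-0.25) were lower in taPVAT and Dio2 (0.30), Gk (0.28) and Acot11 (0.55) higher, all by less than 2-fold.

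In this comparison a log2 value in parentheses is the log2 ratio of taPVAT to BAT. Among the genes with the largest ratios, Foxp2, a forkhead transcription factor (chr4:44099848-44677700), was 327, 306 and 276 CPM in the wells of taPVAT and 37.6, 34.98 and 32.3 CPM in those of BAT (1063 against 163 UMIs, log2 ratio 3.09), with an interval of 2.86 to 3.34, and the wells did not overlap. It was seen in 44.2% of taPVAT and 7.76% of BAT adipocyte nuclei, and no nucleus held more than 1.13% of its taPVAT UMIs. The other nuclei of the libraries differed as well (411 against 80 UMIs, log2 ratio 2.47). Aspg, an asparaginase (chr6:136997832-137017417), was 177, 349.6 and 220.4 CPM against 56.7, 42.0 and 42.8 CPM (2.43), in 33.2% and 10.2% of nuclei, and 10.5% of taPVAT adipocyte nuclei had an Aspg UMI at 500 UMIs against 0.746% of nuclei led by B genes. Aspg differed between the other nuclei of the libraries too (80 against 13 UMIs, log2 ratio 2.73). Acsl5, an acyl-CoA synthetase that feeds triglyceride synthesis, was 162, 146 and 138 CPM against 30.8, 24.8 and 58.5 CPM (2.06), and C6 of the complement cascade had a log2 ratio of 1.91. In the other nuclei Acsl5 had a log2 ratio of 0.50 (156 against 119 UMIs) and C6 2.43 (65 against 13 UMIs).

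Lower in taPVAT were Dmrt2, a transcription factor (chr1:232743935-232750431), with 4 UMIs against 114 (log2 ratio -4.44, interval -6.34 to -3.05), seen in 4 nuclei of taPVAT and 73 of BAT, and Tbx15, a T-box gene of fat identity, at 16.3, 19.7 and 18.0 CPM against 51.8, 47.9 and 41.1 CPM (-1.39). In the other nuclei of the libraries Dmrt2 had 5 against 5 UMIs (log2 ratio 0.11), whereas Tbx15 had 33 against 150 UMIs (-2.07). Zfhx4 (-1.32), Cd40, Lmx1b, Slc22a4, Ccdc83, Noct and Cct2 completed the 10 lowest with Kif15. Of these 8, Kif15, Cd40 and Noct also had ratios below -1 in the other nuclei (-3.44, -1.63 and -1.73). Kif15 was 462, 9.15 and 6.99 CPM in the wells of BAT, so its ratio rests on the first of those wells. Of genes that mark position along the body, Hoxb4 and Hoxa9 were higher in taPVAT (1.28 and 1.17) and Hoxa3 and Hoxb3 had 0.64 and 0.59. These were the 4 Hox genes that passed the minimum, and Hoxb4 and Hoxa9 had 39 and 72 UMIs in taPVAT.

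Markers of some other cells were also higher in taPVAT. Stromal markers outside the rule summed to 520 CPM in taPVAT and 226 CPM in BAT adipocyte nuclei, with 5 of 7 genes at least 2-fold higher (Col1a1 1.66), and 3 of 6 macrophage markers were higher too. None of 10 endothelial and 7 mural markers passed 2-fold either way, with summed log2 ratios of -0.11 and -0.08, and Schwann cell markers had a summed log2 ratio of -0.17 with 1 of 5 genes higher. The matrix gene Aebp1 (2.42), complement C7 (1.88), Marcks and Sdk1 were among the 10 highest beside them. With adipocyte nuclei of B equal to 0 alone, 475 in taPVAT and 795 in BAT, the log2 ratio was 3.00 for Foxp2, 2.70 for Aspg, 2.38 for Acsl5 and 2.78 for C6, but 0.46 for Aebp1 (5 and 7 UMIs), 0.94 for Marcks (10 and 10 UMIs), 1.14 for C7 (8 and 7 UMIs) and 1.16 for Sdk1 (145 and 125 UMIs), and 75 genes of 6228 tested were at least 2-fold higher. In the same nuclei 53 of the 6228 genes were at least 2-fold lower. In the main setting 218 of 10895 genes were higher and 50 lower, so the excess of higher over lower genes was smaller with B of 0. The comparison with B of 0 was chosen after seeing the data. Myh6 (4.02) and Ttn (2.16), genes of striated muscle, had many of their taPVAT UMIs in few nuclei. Of the Myh6 UMIs 1 nucleus held 32.3% and 10 held 69.7%, and 10 nuclei held 66.0% of those of Ttn. In the other nuclei of the libraries Myh6 had 210 against 2 UMIs (log2 ratio 6.82) and Ttn 597 against 187 UMIs (1.78). The part of RNA from neighbouring cells in these differences was not tested.

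**Figure D3:**
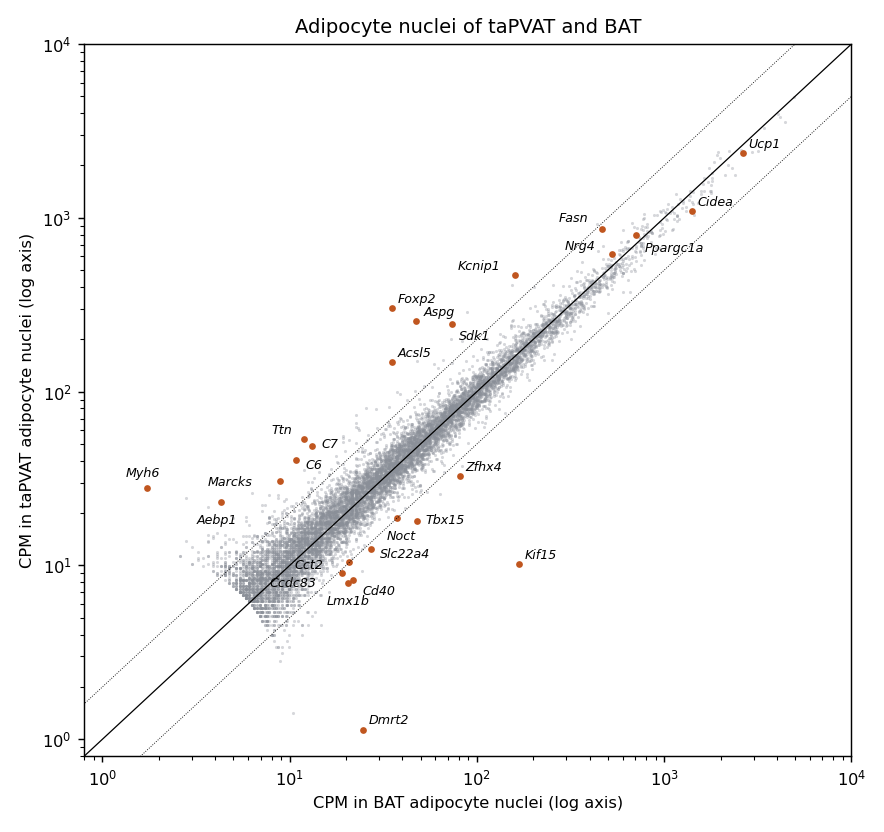
CPM of each gene with at least 50 UMIs in the adipocyte nuclei of BAT (horizontal, log axis) and taPVAT (vertical, log axis), with the line of equal levels and dotted lines at 2-fold. Named points are the 20 genes with the most different ratios, and Ucp1, Cidea, Ppargc1a, Nrg4, Kcnip1 and Fasn, and most genes lie between the dotted lines (ENSRNOG00000087169 lies beyond the axes).

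The libraries labelled as white depots are set beside these values as levels only, and if their labels were exchanged, each value would belong to the other depot. Under the same rule the mesPVAT label held 355 adipocyte nuclei (11.7%), and the RP fat label held 26 (0.927%). The 9 genes of A summed to 11403 CPM in taPVAT, 11812 CPM in the library labelled mesPVAT and 11794 CPM in that labelled RP fat, which the rule sets. Outside the rule, Ucp1 was 34.6 CPM (17.9 to 60.5, 12 UMIs) under the mesPVAT label and 1 UMI under the RP fat label, and Cidea was 49.1 CPM under the mesPVAT label against 1093 CPM in taPVAT. Lep was 245 CPM (196 to 303) under the mesPVAT label and 38.8 CPM in taPVAT, so leptin and Ucp1 were in opposite order. The thermogenic list summed to 1160.1 CPM (1049 to 1279) under the mesPVAT label and 1585 CPM (1026 to 2340.1) under the RP fat label, against 15151 CPM in taPVAT. Lpl was 615 CPM under the mesPVAT label and 2446 CPM in taPVAT.

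Adipocyte nuclei of taPVAT were then compared among themselves. At 500 UMIs, 816 genes had a mean of at least 0.1 UMI per nucleus, and the variance to mean ratio was 1.07 at the median and above 2 in 8 genes. The largest was for Kcnip1, which encodes a subunit of voltage-gated potassium channels, at 5.17, with up to 18 UMIs in a nucleus and 0 in 87.3% of them. Among the next were Mt-co1 (3.50), Fasn (2.67), Mt-nd4 (2.60), AABR07040864.1 (2.14), Apoo (2.10), Mt-co3 (2.04), Mt-cyb (1.98) and Car3 (1.97). Kcnip1 and Fasn, the 2 nuclear genes that varied most, were chosen after these values were seen to split the nuclei, and Ucp1 was taken as the thermogenic gene. The BAT nuclei serve as another library for each split, which the choice did not use. In each split a log2 value in parentheses is the log2 ratio of CPM between nuclei with and without a UMI of the gene at 500 UMIs, taken over all their UMIs.

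**Figure D4:**
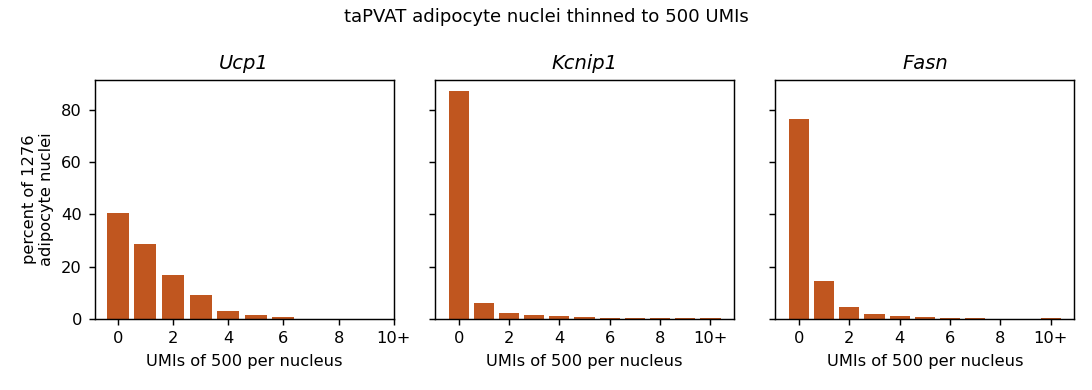
Percent of the 1276 taPVAT adipocyte nuclei (vertical) by the number of Ucp1, Kcnip1 and Fasn UMIs among 500 UMIs of the nucleus (horizontal, with 10 or more joined). Nuclei without the gene are 40.5% for Ucp1, 87.3% for Kcnip1 and 76.6% for Fasn, and the last 2 genes have tails that reach 10 or more UMIs.

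Ucp1 was spread over most nuclei at low counts. Of the 1276 nuclei, 517 had 0 UMIs, 366 had 1, 213 had 2 and 116 had 3, and the highest count was 8. Genes that followed Ucp1 were few: 24 of 7887 genes (0.304%) were at least 2-fold higher and 112 (1.42%) at least 2-fold lower in nuclei with a Ucp1 UMI. Among the 5 named genes most like Ucp1, by this ratio between 759 nuclei with and 517 without, were Atg14 (0.98), Prkag1 (the lesser of 2 features with this symbol, with 126 UMIs against 1175), Mcm10 and Phospho1 (0.87). In BAT, 20 of 8571 genes (0.233%) were higher and 253 (2.95%) lower, and the ratios of these 4 were 0.06, -0.41, 0.03 and 0.90, so that of the 4 Phospho1, a phosphatase of brown fat and bone, had a similar value in both. The other thermogenic genes together were higher by a log2 ratio of 0.31 (0.28 to 0.34), with 16 of 18 above 0, and in BAT by 0.29 with 18 of 18, but none passed 2-fold in either library. Some other lists shifted in the same direction, with summed log2 ratios of 0.22 for fatty acid oxidation, 0.22 for adrenergic and cyclic AMP signalling, 0.20 for triglyceride synthesis and 0.20 for glucose use. Lipogenesis had -0.05 (-0.09 to -0.01), and lipolysis and insulin signalling had 0.04 each, with intervals that include 0. Nuclei with Ucp1 were deeper (a median of 2302 transcripts against 1885). The part of depth in these shifts was not tested. Nr4a1, an early gene of cyclic AMP signalling, had 0.79 and Coro6 0.57. The next highest were Rnf146, Neu2, Erlin2 and Tcf3.

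At the other end, nuclei with Ucp1 held less Kcnip1 (-2.50), with ratios of -2.87, -2.75 and -1.96 in the wells and -3.21 in BAT. Kcnn3, Tshr (-1.95), Nnat, B3galt1, Scn7a, Car3 (-1.61), Igf1 (-1.59), Cadm2 and Aox3 were the other 9 lowest. Scn7a had 84.7% of its UMIs in 10 nuclei. In the same split stromal markers summed to a log2 ratio of -0.71, macrophage markers to -0.49, endothelial markers to -0.43, the 12 genes of B to -0.21 and genes of mitochondrial DNA to -0.20 (-0.26 to -0.14). In BAT these were -1.01, -0.77, -0.34, -0.40 and -0.30. Mural markers were at 0.14 (0.03 to 0.26) in taPVAT, with 3 of 6 genes above 0, and at -0.06 in BAT. Schwann cell markers were at -0.06 and 0.07. The part of any of these transcripts in the split was not tested.

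Nuclei with a Kcnip1 UMI were a minority, and whether they form a separate group was not tested. Without thinning they were 274 of the 1309 adipocyte nuclei (20.9%), and with thinning 78 nuclei had a single UMI of the gene. At 500 UMIs, 162 of 1276 nuclei (12.7%, 10.9 to 14.6) had a Kcnip1 UMI, in wells 10.9%, 15.2% and 12.0%, against 3.92% of nuclei led by B genes and 6.72% (5.55 to 8.06) of 1607 BAT adipocyte nuclei. The 162 nuclei were shallower, with a median of 1559 transcripts (1299 to 1734) against 2202.5 (2101 to 2308). Of 7887 genes, 413 (5.24%) were at least 2-fold higher and 371 (4.70%) lower, and in BAT 681 (7.95%) and 820 (9.57%) of 8571. Of the genes that the rule used, the 9 of A had a summed log2 ratio of -0.02 (-0.07 to 0.02) and the 12 of B 0.32 (0.17 to 0.46), and in BAT these were 0.06 and -0.01. The Kcnip1 locus (chr10:18723726-19093025) overlaps 5 annotated genes, among them Kcnmb1, which had 1 UMI in these nuclei and 5 in the others.

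Igf1, the growth factor, was 893 and 116 CPM with and without Kcnip1 (log2 ratio 2.95, interval 2.73 to 3.16), with 3.01, 2.72 and 3.09 in the wells and 3.25 in BAT. Car3, a carbonic anhydrase abundant in white adipocytes, was 1143 and 149.7 CPM (2.93 and in BAT 2.85). Tshr, the receptor of thyrotropin, was 433 and 61.3 CPM (2.82 and in BAT 3.91). Stac (3.17), Clmp, Kcnn3, Nnat, Sntb1 and Abi3bp (2.44) were also among the 10 highest, and each was above 2 on the log2 scale in BAT as well. The adipokine gene Lep was higher too (1.60, in BAT 1.90), as was Ghr, the growth hormone receptor (1.00), while over the list of secreted factors 2 of 13 genes were at least 2-fold higher and the summed log2 ratio was -0.14. Adipoq had 1.42 and in BAT 1.06, values that only describe the nuclei, since it is a gene of A and the nuclei were chosen by A.

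Thermogenic genes, and several other lists of metabolism, were lower in sum in the same nuclei. Ucp1 was 1135 and 2508 CPM (log2 ratio -1.14, interval -1.29 to -1.004), with -1.25, -1.18 and -1.03 in the wells and -1.39 in BAT. Cidea (-1.03), Gk (-1.06), Cpt1b (-0.85), Esrrg (-0.79) and Ppargc1a (-0.81) had the same direction in both libraries. Over the thermogenic list, 5 of 19 genes were at least 2-fold lower and none higher, with a summed log2 ratio of -0.83 (-0.88 to -0.78), and in BAT 7 of 19 with -0.98. The drop was not limited to this list: summed log2 ratios were -0.70 for fatty acid oxidation, -0.58 for lipogenesis, -0.55 for triglyceride synthesis, -0.52 for glucose use and -0.51 for adrenergic and cyclic AMP signalling, with no more than 3 genes at least 2-fold lower in any of the 5. Lipolysis was at -0.05 (-0.13 to 0.02) and insulin signalling at 0.04 (-0.02 to 0.10). Gnas (-0.96), Nr4a1 (-1.08) and Elovl6 (-1.58) were also lower, while Adrb3 was 384 and 411 CPM (-0.10) and Plin1, a gene of A, 3662 and 3225 CPM. The 10 lowest named genes were Dnah1, Eln, Tomm40l, Car4, Cxcl14, Cib2, Etfrf1, Hhat, Adtrp and Glyctk, each with 10 UMIs or fewer in the nuclei with Kcnip1.

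Markers of other cells moved with this split and their part in it was not tested. Stromal markers summed to 895 CPM with Kcnip1 and 474 CPM without (log2 ratio 0.92), endothelial markers to 746 and 441 CPM (0.76), macrophage markers to 183 and 119 CPM (0.62), and in BAT the ratios were 1.04, 0.35 and -0.03. The stromal sum of BAT rests on few genes, since 2 of 4 were above 0 and the median was -0.21. Schwann cell markers had a summed log2 ratio of 0.33 with 4 of 4 above 0 in taPVAT, and -0.03 in BAT. Mural markers summed to 649.9 and 796 CPM (-0.29), although 4 of 6 genes were above 0 and none passed 2-fold, and in BAT the summed log2 ratio was -0.77 with 3 of 6 at least 2-fold lower. Genes of mitochondrial DNA moved with the split as well, with a summed log2 ratio of 0.20 (0.11 to 0.29) and 10 of 13 genes above 0, and in BAT 0.65 with 13 of 13, of which 1 passed 2-fold in BAT and none in taPVAT.

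Fasn (chr10:106570415-106588581) split the nuclei in another way. Of 1276 nuclei, 299 (23.4%, 21.1 to 25.9) had a Fasn UMI at 500 UMIs, in wells 23.4%, 19.9% and 27.1%, against 11.4% of nuclei led by B genes and 16.2% (14.4 to 18.1) of BAT adipocyte nuclei. Here 52 of 7887 genes (0.659%) were at least 2-fold higher and 53 (0.672%) lower, and in BAT 39 (0.455%) and 132 (1.54%) of 8571. Acsl5, Acaca, Gpam and Acly were among the 10 highest. Acsl5 was 378 and 68.2 CPM with and without Fasn (log2 ratio 2.47, interval 2.21 to 2.74), with 2.70, 2.39 and 2.45 in the wells and 1.68 in BAT. Acaca, which makes the malonyl-CoA that Fasn uses, was 1933 and 601 CPM (1.69, in BAT 1.05). Gpam was 1053 and 394 CPM (1.42, in BAT 0.80) and Acly 814 and 361 CPM (1.17, in BAT 0.48). Elovl6, which lengthens the product of Fasn, had 0.97, Me1, which supplies NADPH, 0.59 and Srebf1 -0.08. Without Fasn itself, 2 of 10 lipogenic genes were at least 2-fold higher and 9 were above 0, with a summed log2 ratio of 0.71 (0.66 to 0.76), and 0.38 in BAT.

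Enpep, Krt79, Smc2, Stimate, Grk6 and Fanca were the other 6 highest, and only Stimate (1.24, in BAT 0.97) and Enpep (1.62, in BAT 0.55) of these had intervals above 0 in BAT. Aoah, Itgal, Cemip2, Btg2, Eln, Cyp2e1, Smc4, Fam20a, Pot1b and Coasy were the 10 lowest. Ucp1 was 2148 and 2429.6 CPM with and without Fasn (-0.18), and the thermogenic list had a summed log2 ratio of -0.08. Genes of mitochondrial DNA had a summed log2 ratio of 0.40 (0.34 to 0.47), with 12 of 13 above 0, and 0.68 in BAT, and none passed 2-fold in either library. Endothelial markers summed to 0.29 (0.14 to 0.44), stromal markers to 0.26 (0.11 to 0.41) and the 12 genes of B to 0.15 (0.04 to 0.26), while in BAT these were -0.10, 0.16 and 0.02. Macrophage, mural and Schwann cell markers were at -0.26, 0.10 and 0.08 in taPVAT, with intervals that include 0. The part of these transcripts in the split was not tested.

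Of the 1276 nuclei, 122 had Kcnip1 alone, 259 Fasn alone, 40 both and 855 neither. A Ucp1 UMI was found in 21.3% (14.4 to 29.6), 58.7% (52.4 to 64.7), 20% (9.05 to 35.6) and 67.0% (63.8 to 70.2) of these. In BAT the shares were 15.2%, 64.8%, 31.3% and 68.4%, the third over 16 nuclei. In both libraries nuclei with Kcnip1, with or without Fasn, had Ucp1 less often than nuclei with neither, and the intervals of these groups did not overlap. A Ucp1 UMI at this depth is a share of nuclei with a UMI and not of nuclei expressing the gene, and it was not tested what part depth before thinning has in the difference.

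**Figure D5:**
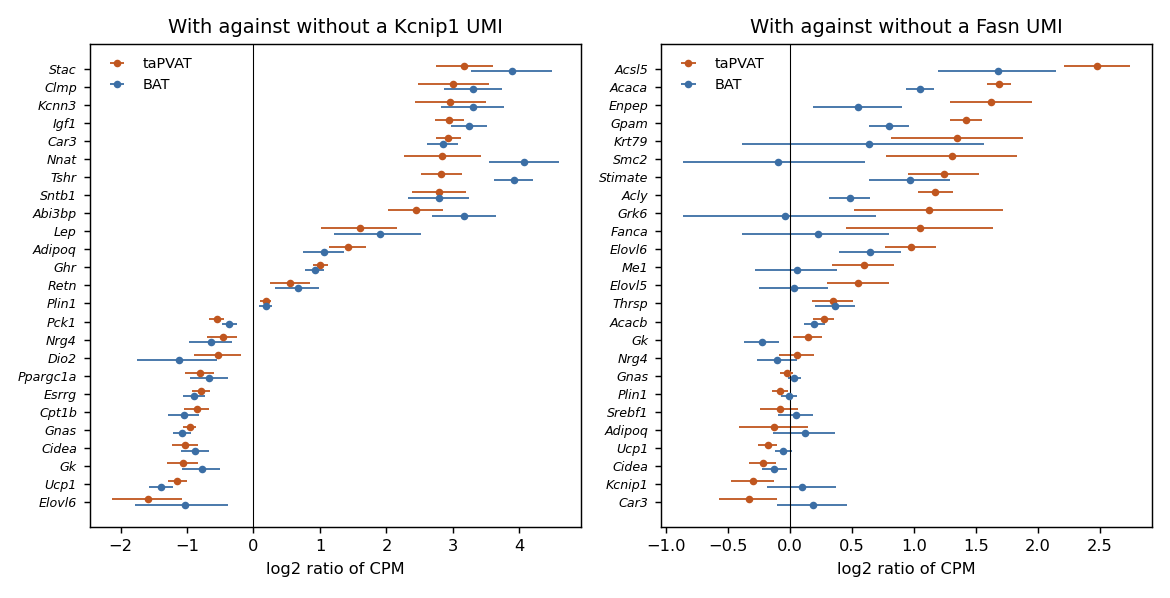
Log2 ratio of CPM (horizontal, with counting intervals) for chosen genes between adipocyte nuclei with and without a Kcnip1 UMI (left) and a Fasn UMI (right), in taPVAT (orange) and BAT (blue). With Kcnip1, Igf1 was at 2.95 and 3.25 and Ucp1 at -1.14 and -1.39, and with Fasn, Acsl5 was at 2.47 and 1.68 and Ucp1 at -0.18 and -0.05.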

How the data were processed

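The authors split the reads by species, ran split-pipe against the rat build GRCr8 and deposited filtered matrices of UMI counts, whole numbers per gene and nucleus. The processing notes also name FastQC and Scanpy. Whether strand was used in counting is not given in the sources used here, and reads of overlapping genes then cannot be told apart. The taPVAT sample held 2708 nuclei and 5100216 UMIs.

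From these counts, UMIs were summed over the nuclei of a kind and given as CPM, with Python 3.11.15, numpy 2.4.6, pandas 2.3.3, scipy 1.17.1 and matplotlib 3.10.9. Ratios were taken for genes with at least 50 UMIs over the nuclei compared, and a gene counted as higher or lower past 2-fold. Intervals at 95% were exact Poisson for sums, exact binomial (Clopper-Pearson) for shares, conditional binomial for ratios and order-statistic for medians, and wells are no replicates. With 1 Parse library per depot no p-value was computed. For shares, each nucleus was thinned to 500 UMIs (seed 20) and shallower nuclei were left out. Nuclei led by B genes had B of at least 3 and more than 2 times A. No doublet caller was run.

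Named genes were those with at least 100 UMIs and the largest ratios: 20 higher and 10 lower against other nuclei, and 10 each way against BAT and in each split, besides members of the lists. Where features share a symbol, a list counted the first in the file and each feature had its own ratio. The rule, the gene lists and the members were chosen with earlier results of these data known. The splits by Kcnip1 and Fasn were chosen after values were seen. Of 142 genes named, 136 matched the RefSeq table of GRCr8, and 57 of these overlap another gene. The fold calls and ratio intervals of taPVAT against BAT were tested on simulated sums of UMIs, which had no spread between nuclei. The rule, the lists and the splits were not tested on simulated data. Some genes that the rule for named genes selects are not reported here. Alternatives changed the thresholds of the rule, the minimum of UMIs, the depth, the sublibrary and the way of averaging.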

Additional observations from a re-analysis of the deposited data

Results flagged for a closer look

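Flagged here were 9 log2 ratios of single genes that pointed one way in taPVAT and the other way in BAT, with counting intervals on opposite sides of 0. Among lists, the lipogenesis sum did the same between nuclei with and without a Ucp1 UMI (-0.05 in taPVAT and 0.15 in BAT). The difference between the libraries was not tested in any of them, since each depot had 1 Parse library. Against the other nuclei of the same library, Acsl5 was at 0.57 in taPVAT and -0.995 in BAT, Sik1 at 0.67 and -0.21, Foxp2 at 0.20 and -0.42, and Ebf1 at 0.16 and -0.16.

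Between nuclei with and without a Ucp1 UMI, Acsl5 was at -0.26 in taPVAT and 0.68 in BAT, and Gpam at -0.15 and 0.32. Between nuclei with and without a Fasn UMI, Gk was at 0.14 and -0.22. Eln, the elastin gene, was at -2.22 and 2.95 in the split by Kcnip1 and at -1.05 and 2.11 in the split by Fasn. Of the Eln UMIs, 1 nucleus held 26.1% in taPVAT and 27.6% in BAT, and 10 nuclei held 65.4% and 72.4%.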

How the results depend on the processing

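Of 82 alternative values, 53 stayed within the limits set for a change and 29 moved beyond them. Of these, the 13 log2 ratios of Ucp1 alone have a direction, and 0 of them changed it. The number of genes higher in adipocyte than in other nuclei stayed within 1.5 times in all 15 alternatives (677 to 1322). The number of genes tested changed as well. As shares of it, the higher genes ran from 7.82% with A more than 4 times B to 14.6% with thinned nuclei, against 9.87% in the main setting. The share of adipocyte nuclei was 54.95% among nuclei with at least 500 UMIs, 50.3% in sublibrary 2, 51.6% with A of at least 3, 41.4% with A of at least 10, 51.3% with A more than B and 43.8% with A more than 4 times B. The log2 ratio of Ucp1 was 2.57 without the 5% deepest nuclei, 2.03 with A of at least 10, 2.68 with A more than B, 1.76 with A more than 4 times B, 2.38 without ENSRNOG00000087169, 2.38 as a mean per nucleus, 2.63 with thinned nuclei and 3.76 against nuclei led by B genes. Genes lower in adipocyte nuclei were 1756 and 1598 in sublibraries 1 and 2 (23.2% and 22.0% of genes tested) and 1087 with thinned nuclei (23.2%). They were 4908 with a minimum of 20 UMIs (33.5%) and 928 with 200 UMIs (19.2%), against 26.3% in the main setting. Genes higher in taPVAT than in BAT were 126 without the 5% deepest nuclei, 104 in sublibrary 1, 59 with thinned nuclei, 579 and 43 with the same 2 minimums and 75 with B of 0, an alternative added after seeing the data. Genes lower were 95 as a mean per nucleus, 25 with thinned nuclei, and 229 and 7 with the 2 minimums. With B of 0 the lower genes were 53 of 6228 tested, against 50 of 10895 in the main setting, and this count stayed within the limits. Fewer genes pass a higher minimum or thinning, and the cause of the other changes was not tested. No paired analysis was possible because each depot had 1 Parse library and no test was made. Genes with few UMIs have wide intervals, and a ratio within its interval of 0 was not detectable at this depth.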
